A study of Rattus norvegicus with 6 samples.

Results

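The 10 genes described here are read as markers of cytotoxic lymphocytes, the CD8+ T cells and natural killer (NK) cells that kill infected, damaged or transformed cells. They are Gzma, Gzmb, Prf1, Nkg7, Klrd1, Klrb1a, Ncr1, Cd8a, Cd3d and Cd3g, taken as a list of gene symbols and matched to every array probe through the RefSeq accession of the probe. They make up 10 of the 15639 gene symbols on the array, and 13 probes read them. All 10 passed the filter on dim probes, 9 of them well above background on all 6 arrays. Liver RNA was measured on 1-colour Agilent microarrays in 6 rats, all males of the outbred Sprague-Dawley stock, bought at an age of 5 weeks. Carbon tetrachloride (CCl4), a solvent that damages liver cells once cytochrome P450 enzymes activate it, was given to 3 rats at 100 mg/kg/day, and corn oil, the vehicle, to the other 3. The exposure is uncertain, because the series design speaks of 28 days and the treatment protocol of 9 weeks. Each rat gave 1 array.

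Cytotoxic lymphocytes carry granules filled with perforin and granzymes. On contact with a target cell they release these granules, perforin lets the granzymes into the target, and the granzymes, which are serine proteases, cleave proteins there and kill it. T cells recognise their targets through the T cell receptor and its CD3 chains, and NK cells through sets of activating and inhibitory receptors. The healthy liver is rich in both kinds of cell, the NK cells of the sinusoids having once been named pit cells in the rat. Some markers are shared between them: in the rat, CD8 alpha is also found on many NK cells, and granzymes and perforin are made by both.

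Signals are given on the log2 scale relative to the 75th percentile of the same array. A value of 0 is that percentile, and a negative value is a dimmer signal. A change is the CCl4 mean minus the corn oil mean on this scale. Each gene was read by its own probe, so levels are compared between animals and not between genes. The 75th percentile itself was 582.6 to 675.6 signal units per array, and 61.9% to 67.3% of probes were well above background. The first slide held CCl4 replicate 1 and the 3 corn oil arrays, while CCl4 replicates 2 and 3 were on a second slide with a different scan day, so group and slide are partly confounded. The tissue label was checked with 12 hepatocyte markers, all of which were tested and well above background, their summed signal being 6542 to 7075 times the 75th percentile in CCl4 livers and 7570 to 7953 times in corn oil livers.

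The promoters of 4 of the genes are shown first, because the largest and the most uneven changes described below belong to Gzma and Gzmb, and because Cd3d and Cd3g are neighbours on one chromosome. Each sequence runs from 250 bases before to 50 bases after the annotated start, from RefSeq on the GRCr8 assembly, and capitals mark a match to any of 4 motifs that were searched on both strands. The Gzma promoter lies at chr2:46485647-46485946 on the minus strand, the Gzmb promoter at chr15:34462420-34462719 on the minus strand, the Cd3d promoter at chr8:54185269-54185568 on the plus strand and the Cd3g promoter at chr8:54183869-54184168 on the minus strand.
Gzma: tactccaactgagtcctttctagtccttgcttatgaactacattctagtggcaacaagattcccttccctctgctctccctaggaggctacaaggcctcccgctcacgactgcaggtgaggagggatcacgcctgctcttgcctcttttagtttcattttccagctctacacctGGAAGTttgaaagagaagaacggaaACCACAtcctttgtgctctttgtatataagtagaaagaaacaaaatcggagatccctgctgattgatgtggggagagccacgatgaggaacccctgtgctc
Gzmb: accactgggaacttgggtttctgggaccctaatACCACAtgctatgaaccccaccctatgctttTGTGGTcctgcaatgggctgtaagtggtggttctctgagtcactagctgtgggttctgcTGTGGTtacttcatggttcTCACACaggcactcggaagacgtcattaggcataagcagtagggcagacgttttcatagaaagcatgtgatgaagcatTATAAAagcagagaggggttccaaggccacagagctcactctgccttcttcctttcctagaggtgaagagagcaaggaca
Cd3d: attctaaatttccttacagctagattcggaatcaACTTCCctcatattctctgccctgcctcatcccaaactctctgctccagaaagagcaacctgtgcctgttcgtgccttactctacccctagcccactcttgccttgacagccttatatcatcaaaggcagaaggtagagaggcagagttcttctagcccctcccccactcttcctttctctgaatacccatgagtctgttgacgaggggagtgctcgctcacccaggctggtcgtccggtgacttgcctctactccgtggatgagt
Cd3g: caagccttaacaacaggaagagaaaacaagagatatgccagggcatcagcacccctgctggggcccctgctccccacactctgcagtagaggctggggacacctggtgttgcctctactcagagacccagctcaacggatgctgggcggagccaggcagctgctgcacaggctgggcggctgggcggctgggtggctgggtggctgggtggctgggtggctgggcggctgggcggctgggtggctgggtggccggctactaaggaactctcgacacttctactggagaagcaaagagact

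The motifs were a T-box core (GTGTGA), a RUNX core (TGTGGT), an ETS core (GGAAGT) and a TATA box core (TATAAA), families to which regulators of cytotoxic lymphocyte genes belong in mice, apart from the TATA box. The Gzma window held 1 ETS match, beginning 76 bases before the start, and 1 RUNX match on the other strand, beginning 51 bases before it. The Gzmb window held 3 RUNX matches, 1 T-box match and a TATA match that began 30 bases before the start. The Cd3d window held 1 ETS match, and in the Cd3g window none of the 4 letter strings was present. Of the 10 genes 8 had a promoter in the table, Klrd1 and Ncr1 being the exceptions. A T-box match was present in 3 of these 8, a RUNX match in 4, an ETS match in 4 and a TATA match in 1. Over all 33469 promoters of the same length the shares with a match were 13.7% for the T-box, 17.3% for RUNX, 22.6% for ETS and 14.2% for TATA. Cd3d and Cd3g start 1601 bases apart and point away from each other. A match describes the letters of a window and is not evidence of a bound factor.

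Repeated CCl4 exposure went with a lower signal of granzyme A and with no other call among the 10 genes. Gzma fell to 40.0% of its corn oil level, whereas the granule gene Nkg7, the receptor gene Klrb1a and the T cell co-receptor gene Cd8a had group means within 0.09 of each other on the log2 scale. The 2 CD3 chain genes had slightly higher means in CCl4 livers, within the spread of the animals. By limma, adjusted for 11933 genes tested, 1 of the 10 genes was lower and 0 were higher at an adjusted p below 0.05. Over all genes tested 0.637% passed, 0.0754% lower and 0.561% higher in CCl4. At an unadjusted p below 0.05 there were 2 of the 10, Gzma and Klrd1, against 19.7% of all genes. The groups did not overlap for the same 2 genes, both lower in CCl4, where 27.4% of all genes had groups that did not overlap, 15.9% lower and 11.5% higher. The share of the 10 genes with separated groups is thus near that of all genes. The change was negative in 7 and positive in 3, with a median of -0.20, against -0.05 over all genes tested. In RNA of whole liver, fewer cells of a type and less RNA per cell cannot be told apart.

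**Figure D1:**
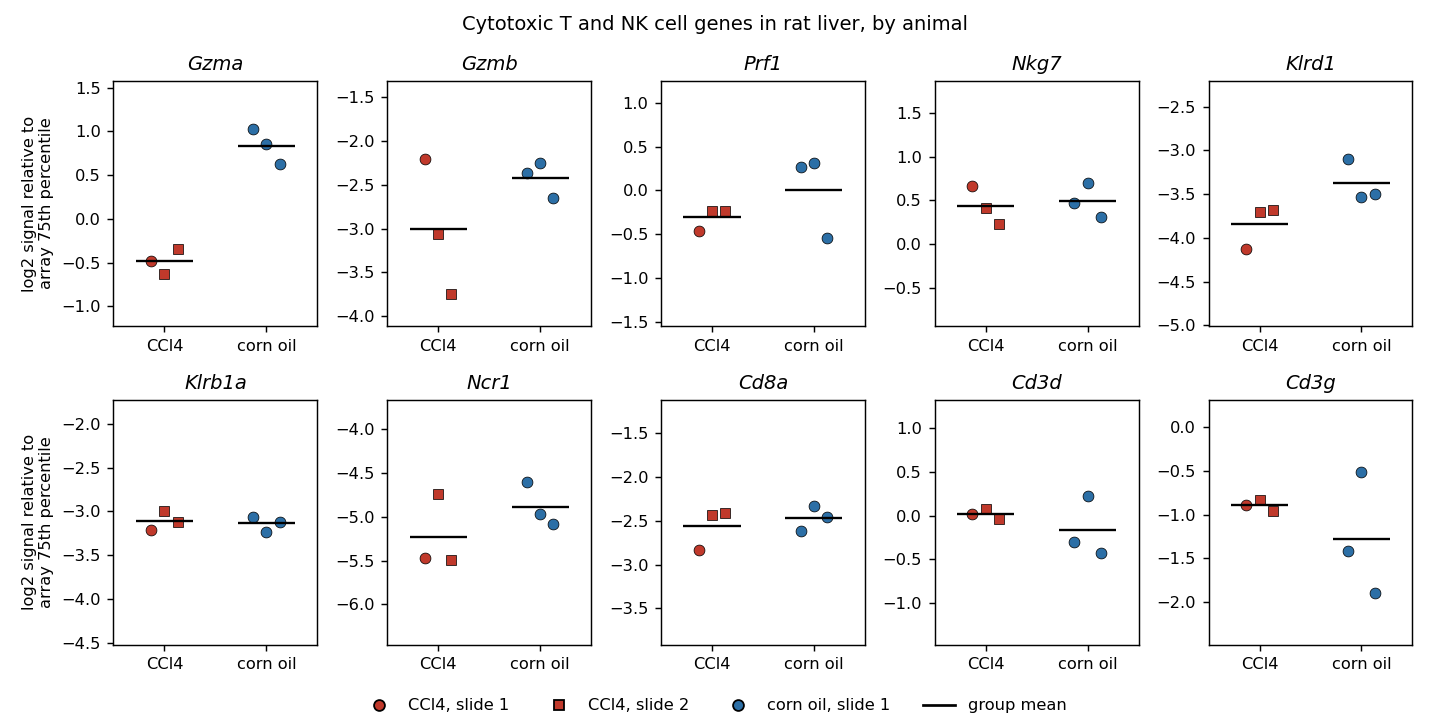
Signal of each of the 10 genes in each animal, as log2 relative to the 75th percentile of the array, in a panel of its own for each gene. Red points are CCl4 livers, blue points corn oil livers, squares mark the second slide and bars the group means. Only Gzma and Klrd1 have groups that do not overlap.

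The granule effectors come first. Gzma encodes granzyme A, a tryptase-like serine protease of cytotoxic granules, and was read by 1 probe that was well above background on every array. Its log2 signal was -0.48, -0.63 and -0.34 in CCl4 livers, against 1.02, 0.86 and 0.63 in corn oil livers. Every CCl4 animal was below every corn oil animal, and the gap between the groups was wider than the range within either of them. The means were -0.49 ± 0.15 in CCl4 and 0.84 ± 0.20 in corn oil (SD, n = 3 animals each), a change of -1.32 ± 0.14 (SE, 95% interval -1.67 to -0.98; limma adjusted p = 0.0252). By the size of the fall, Gzma ranked 47th of the 11933 genes, the most negative change counted first. The call did not hold in every fit: the change was -1.32 with slide as a fixed block, which rests on 1 CCl4 animal, but its adjusted p was then 0.195. With slide as a random block it passed (-1.32, adjusted p = 0.0227). Leaving out 1 array at a time gave adjusted p of 0.0300 to 0.143, past the threshold in 1 of 6 fits, the one without CCl4 replicate 3.

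Gzmb encodes granzyme B, which cleaves after aspartate and activates caspases in the target cell. The probe that stands for it had log2 signals of -2.20, -3.07 and -3.75 in CCl4 livers and -2.36, -2.25 and -2.65 in corn oil livers. CCl4 replicate 1 lay above all corn oil animals, while the other CCl4 animals lay below all of them, so the groups overlapped. The change was -0.58 ± 0.38 (95% interval -1.50 to 0.33; limma adjusted p = 0.428), the widest standard error among the 10 genes. The split among the CCl4 animals follows the slides: the high animal shared slide 1 with the corn oil arrays, and with slide as a fixed block, which rests on that 1 CCl4 animal, the change was 0.22, of the opposite sign. With slide as a random block it was -0.63. The part of the slide in this split was not tested.

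The other Gzmb probes repeated the order of the CCl4 animals. The probe A_44_P109503 had -2.69, -3.56 and -4.35 in CCl4 livers and -2.82, -2.75 and -3.06 in corn oil livers, a change of -0.65. The probe A_64_P004796 had -3.22, -4.13 and -4.64 in CCl4 livers and -3.42, -3.97 and -3.71 in corn oil livers, a change of -0.29. On all 3 probes CCl4 replicate 1 was the highest of the 6 animals and CCl4 replicate 3 the lowest. The 3 probes share 1 transcript accession and 1 RNA sample per animal, so they are repeated readings and not replicates. Whether the probes of the granzyme genes, and of the Klr genes below, each read 1 gene alone was not tested.

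**Figure D2:**
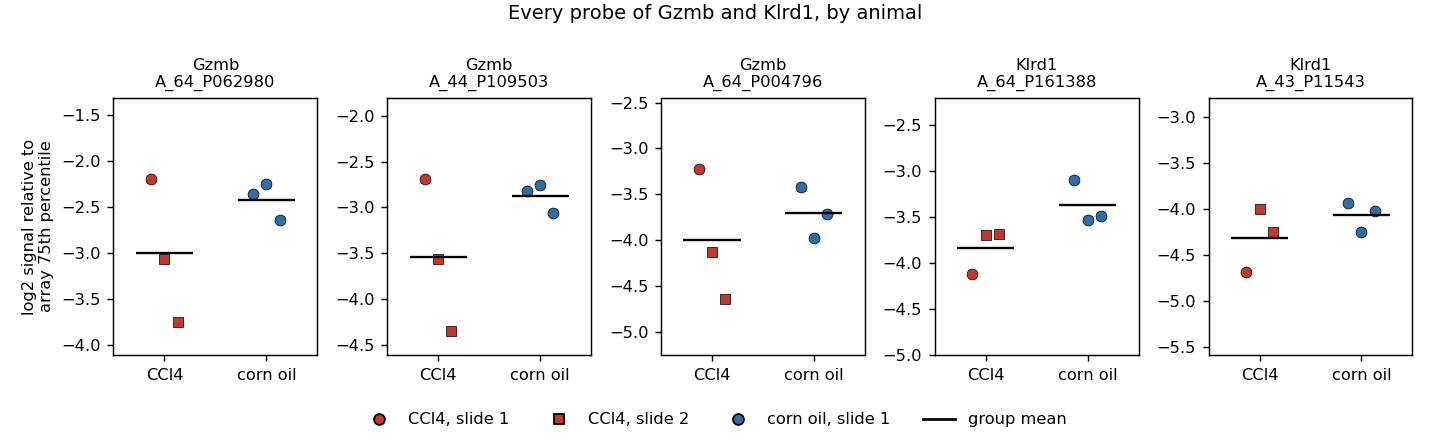
Signal of each probe of Gzmb and Klrd1 in each animal, as log2 relative to the 75th percentile of the array. Red points are CCl4 livers, blue points corn oil livers, squares mark the second slide and bars the group means. On all 3 Gzmb probes the CCl4 animal of slide 1 is the highest of the 6, and the 2 probes of Klrd1 differ in whether the groups overlap.

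Prf1 encodes perforin, which forms the pores through which granzymes enter. Its log2 signal was -0.46, -0.23 and -0.23 in CCl4 livers and 0.27, 0.31 and -0.55 in corn oil livers. The CCl4 animals were close together, and corn oil replicate 3 was the lowest of all 6, below the range of the CCl4 group. The change was -0.32 ± 0.25 (95% interval -0.91 to 0.27; limma adjusted p = 0.501). Nkg7 encodes a membrane protein of cytotoxic granules that takes part in their release in mice. It had 0.67, 0.41 and 0.23 in CCl4 livers and 0.47, 0.69 and 0.31 in corn oil livers. These ranges covered each other almost wholly, and the change was -0.06 ± 0.16 (95% interval -0.44 to 0.33; limma adjusted p = 0.871). A fall as large as that of Gzma lay outside the intervals of both Prf1 and Nkg7, and inside that of Gzmb.

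Among the receptors of NK cells, Klrd1 encodes CD94, the partner chain of the NKG2 receptors that bind non-classical class I molecules. Its log2 signal was -4.13, -3.70 and -3.69 in CCl4 livers and -3.10, -3.54 and -3.49 in corn oil livers. The groups did not overlap, though the nearest animals were only a small step apart. The change was -0.46 ± 0.18 (95% interval -0.90 to -0.02), with an unadjusted p of 0.0422 and an adjusted p of 0.241 by limma. The second Klrd1 probe had -4.69, -4.01 and -4.25 in CCl4 livers and -3.94, -4.25 and -4.02 in corn oil livers. Here the groups overlapped, and the change was -0.24, so the separation seen on the first probe did not appear on the other.

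Klrb1a encodes NKR-P1A, a lectin-like receptor long used as an NK cell marker in the rat. It had -3.21, -2.99 and -3.12 in CCl4 livers and -3.06, -3.23 and -3.12 in corn oil livers. All 6 animals lay close together, and the change of 0.03 ± 0.11 (95% interval -0.23 to 0.29; limma adjusted p = 0.896) had the smallest standard error of the 10 genes. Ncr1 encodes NKp46, an activating receptor that marks NK cells in many mammals. It had -5.47, -4.74 and -5.49 in CCl4 livers and -4.60, -4.96 and -5.08 in corn oil livers. This was the gene nearest to background, well above it on 1 CCl4 array and 2 corn oil arrays, and its change was -0.35 ± 0.24 (95% interval -0.94 to 0.23; limma adjusted p = 0.454). The sensitivity of the Ncr1 reading is limited by that dimness.

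None of the 3 T cell genes passed the test. Cd8a encodes the alpha chain of CD8, the co-receptor that binds class I molecules. Its log2 signal was -2.83, -2.43 and -2.41 in CCl4 livers and -2.62, -2.34 and -2.45 in corn oil livers. CCl4 replicate 1 was the lowest animal, and the other CCl4 animals lay inside the corn oil range. The change was -0.09 ± 0.15 (95% interval -0.46 to 0.29; limma adjusted p = 0.788). Cd3d encodes the delta chain of the CD3 complex, which carries the signal of the T cell receptor. It had 0.01, 0.08 and -0.04 in CCl4 livers and -0.30, 0.23 and -0.42 in corn oil livers. The CCl4 values lay inside the corn oil range, and the change was 0.19 ± 0.18 (95% interval -0.26 to 0.63; limma adjusted p = 0.599).

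Cd3g encodes the gamma chain of the same complex. It had -0.89, -0.83 and -0.95 in CCl4 livers and -1.42, -0.52 and -1.89 in corn oil livers. As with Cd3d, the CCl4 animals sat inside a wide corn oil range, with corn oil replicate 2 the highest of the 6 animals and corn oil replicate 3 the lowest for both genes. The change was 0.38 ± 0.33 (95% interval -0.42 to 1.19; limma adjusted p = 0.548). The corn oil SD of Cd3g was 0.70, against 0.06 among the CCl4 animals, and that of Cd3d was 0.35, against 0.06. Over the 9 genes other than Gzma, changes ran from -0.58 to 0.38 and adjusted p from 0.241 to 0.896. With each probe tested on its own over 40478 probes, 1 of the 13 passed, that of Gzma (adjusted p = 0.0344).

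**Figure D3:**
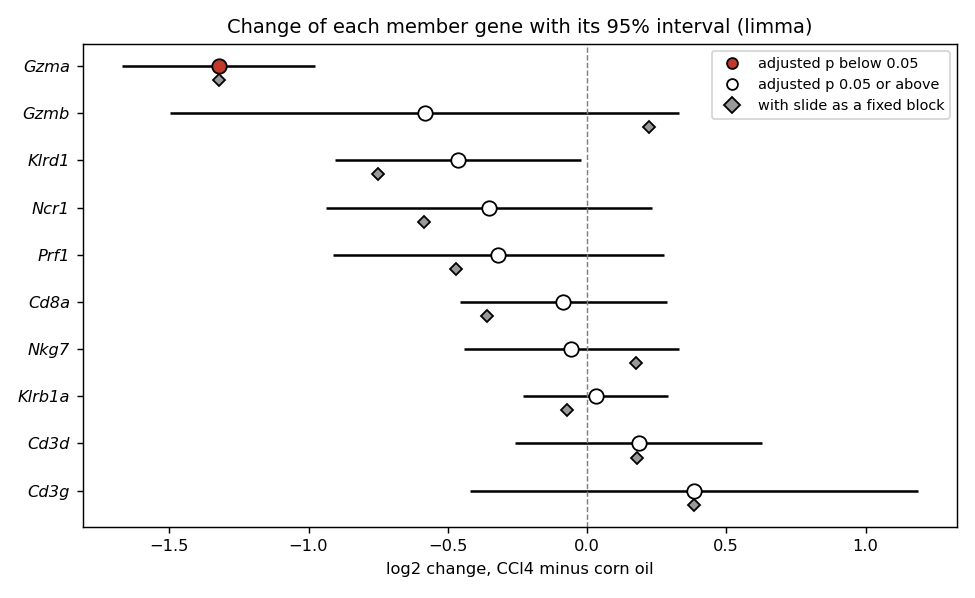
Change of each gene, as the CCl4 mean minus the corn oil mean in log2 units (circles), with its 95% interval from limma (lines), in order of the change. The filled circle passed at an adjusted p below 0.05, and grey diamonds give the change with slide as a fixed block. The interval of Gzma ends at -0.98, and the diamonds of Gzmb, Nkg7 and Klrb1a lie on the other side of 0 from their circles.

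The fall of Gzma can also be described as a ratio to the other genes within each animal, which restates the values above and is no separate support for them. The log2 ratio of Gzma to Nkg7 was -1.15, -1.05 and -0.56 in CCl4 livers and 0.55, 0.17 and 0.32 in corn oil livers, so the ratio of these probe signals was below 0 in every CCl4 animal and above it in every corn oil animal. The ratio to Cd3g was 0.41, 0.20 and 0.62 in CCl4 livers and 2.44, 1.38 and 2.52 in corn oil livers. The zero point of such a ratio depends on the probes, and only its shift between the groups is read. The shift ran from -0.74 against Gzmb to -1.71 against Cd3g. For 8 of the 9 genes, all but Gzmb, no CCl4 animal overlapped a corn oil animal. These ratios share the Gzma values, so they are not independent of each other.

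**Figure D4:**
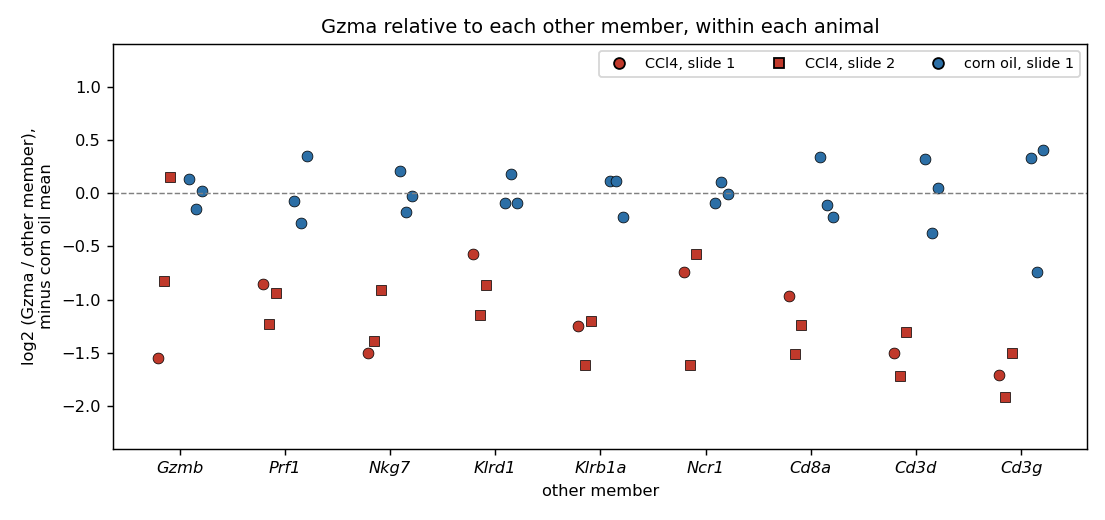
Log2 ratio of Gzma to each of the other 9 genes in each animal, after subtracting the corn oil mean of that ratio. Red points are CCl4 livers, blue points corn oil livers, and squares mark the second slide. The groups are apart for every gene except Gzmb, where CCl4 replicate 3 lies above the corn oil animals and the other CCl4 animals below them.

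Likeness between the 9 genes well above background on all arrays, thus without Ncr1, was measured as the mean absolute difference of their log2 signals over the 6 arrays, after each gene was centred on its own mean. The closest pairs were Klrb1a with Cd8a at 0.148, Nkg7 with Cd3d at 0.184 and Cd3d with Cd3g at 0.187. The farthest was Gzma with Cd3g at 0.853. Genes with small changes are close to each other by this measure whatever their role. Among other genes on the array, the 5 most like Gzma were Pcp4 (0.155), Fzd4 (0.166), Zdhhc23 (0.166), Cyp1a2 (0.168) and Fmo1 (0.175). Cyp1a2 encodes a cytochrome P450 enzyme and Fmo1 a flavin monooxygenase, both drug-metabolising enzymes of the hepatocyte, and Fzd4 a Wnt receptor. Only Fmo1 of these 5 passed the test, with a change of -1.44 ± 0.17 (limma adjusted p = 0.0256). The 5 genes most like the mean profile of the 9 genes well above background on all arrays were Entrep3, Fyco1, Gtf2h4, Ss18 and Ahctf1, at 0.036 to 0.053, and none of these passed.

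Genes linked to the wider machinery of cytotoxic lymphocytes were read from 8 further lists, of 194 genes in all, 140 of which were tested. The RNA is of whole liver, and which cells gave the signal of each listed gene was not tested. Serpina3n had means of 9.19 in CCl4 and 9.53 in corn oil livers, and B2m of 9.22 and 9.11. The counts and medians of these lists are therefore not readings of lymphocytes alone. Of the 140 genes, 3 rose and 0 fell at an adjusted p below 0.05, or 2.14% called, beside 0.637% over all genes tested. At an unadjusted p below 0.05 there were 29 (20.7%, beside 19.7% of all genes). The groups did not overlap for 21 that were higher in CCl4 (15.0%, beside 11.5% of all genes) and 14 that were lower (10%, beside 15.9%). The genes that rose were Cxcl16, Pvr and Ly49si1, and none of them encodes a granule protein. Their changes kept their sign and much of their size with 1 array left out at a time, at 1.55 to 1.78 for Cxcl16, 1.28 to 1.57 for Pvr and 1.17 to 1.42 for Ly49si1, but Cxcl16 passed in only 2 of these 6 fits, Pvr in 1 and Ly49si1 in 0. With slide as a fixed block none of the 3 passed, the adjusted p being 0.188 for Cxcl16, 0.0750 for Pvr and 0.221 for Ly49si1. With slide as a random block all 3 passed. Over all 19 alternatives listed below, Cxcl16 passed in 12 (changes of 1.51 to 1.78), Pvr in 11 (1.11 to 1.83) and Ly49si1 in 8 (0.72 to 1.42).

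Cxcl16 encodes the chemokine that binds CXCR6, a receptor of liver-resident lymphocytes. Its log2 signal was 1.81, 1.82 and 1.35 in CCl4 livers and -0.10, 0.26 and -0.05 in corn oil livers, a 3.09-fold rise (1.63 ± 0.17; limma adjusted p = 0.0252). Every CCl4 animal was above every corn oil animal. The receptor gene Cxcr6, named here beside its ligand gene and not for its change, had -0.23 ± 0.26. It was well above background on 1 CCl4 and 2 corn oil arrays. Pvr encodes the poliovirus receptor, a ligand of the lymphocyte receptors DNAM-1 and TIGIT. It had -0.45, -0.98 and -1.02 in CCl4 livers and -2.23, -2.36 and -2.25 in corn oil livers, a 2.75-fold rise (1.46 ± 0.17; limma adjusted p = 0.0292). Ly49si1 belongs to the Ly49 family of lectin-like receptors of rodent NK cells. It had -2.55, -2.22 and -2.05 in CCl4 livers and -3.62, -3.72 and -3.31 in corn oil livers, a 2.43-fold rise (1.28 ± 0.18; limma adjusted p = 0.0462). Ly49 genes form a large family of similar sequences in the rat, and whether this probe reads one of them alone was not tested.

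Of 18 further granule and release genes tested, 11 had a positive and 7 a negative change, with a median of 0.06 and none past the test. The other granzyme genes tested were Gzmc, Gzmk and Gzmm, and none passed. Of the same list Gzmf, Gzmn, Ifng and Stx11 were too dim to be tested, and Gzmbl2 and Gzmbl3 were not matched to a probe. Gzmk had a change of 0.02 ± 0.20, Gzmm of 0.10 ± 0.17 and Gzmc of -0.37 ± 0.17 (limma adjusted p = 0.973, 0.787 and 0.285). Gzmk and Gzmm were chosen after their values were seen. Serpinb9, whose product inhibits granzyme B, had a change of 0.88 ± 0.15 with no overlap (limma adjusted p = 0.0652). Fas, the death receptor, had 0.67 ± 0.25, and its ligand gene Faslg -0.74 ± 0.28 (limma adjusted p = 0.228 and 0.231). The Faslg groups were almost tied where they met, the highest CCl4 value being -3.9221 and the lowest corn oil value -3.9213. Groups did not overlap for 27.4% of all genes tested.

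Of 20 further T cell genes tested, 14 had a positive change, the median being 0.16 and none past the test. Il7r, the interleukin 7 receptor, had 0.81 ± 0.36, and the co-stimulatory receptor Cd27 had 0.82 ± 0.37 (limma adjusted p = 0.270 and 0.278). The lowest among genes well above background on every array were the signalling adaptor Lat at -0.32 ± 0.16 and the phosphatase Ptpn22 at -0.05 ± 0.14. Cd8b, the partner chain of Cd8a and named here after its values were seen, had a change of 0.76 ± 0.24 and was the 1 gene of this list with groups that did not overlap, where 27.4% of all genes had such groups (limma adjusted p = 0.169). Of 20 NK receptor and adaptor genes, 13 had a positive change, the median being 0.12 and 1 past the test, Ly49si1. Klra5, another Ly49 gene, had 0.89 ± 0.41, and the interleukin receptor chains Il18r1 and Il12rb2 had -0.94 ± 0.30 and -0.36 ± 0.22 (limma adjusted p = 0.288, 0.174 and 0.397). Klrk1, which encodes the activating receptor NKG2D and was also chosen after its values were seen, had -0.16 ± 0.10.

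Transcription factors of lymphocytes were the 1 list of these 8 with mostly negative changes, 10 of 13 tested, with a median of -0.17 and none past the test. Among the 10 were Tbx21, Id2 and Nfil3, with corn oil means of 7.26, 3.12 and 2.00. Which liver cells gave these signals was not tested, nor was which RNA the Tbx21 probe reads. Runx1 and Prdm1, which encodes Blimp-1, had positive changes of 0.86 ± 0.16 and 0.60 ± 0.20 (limma adjusted p = 0.0708 and 0.193), both without overlap. Nfil3 and Id2, which NK cell development needs in mice, had -0.55 ± 0.30 and -0.47 ± 0.34. Of 17 cytokines and chemokines tested, 12 had a positive change, the median being 0.20 and Cxcl16 past the test. Ccl3 had 1.02 ± 0.23, Ccl5 -0.45 ± 0.09 and Cxcl12 -0.85 ± 0.27 (limma adjusted p = 0.0952, 0.0828 and 0.169), and the groups of all 3 chemokines were apart. Runx1, Prdm1 and these chemokines were named for the size of their changes, and 27.4% of all genes had groups that did not overlap. Il15, which NK cells need to survive and which was chosen after its values were seen, had -0.36 ± 0.13 (limma adjusted p = 0.217).

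Of 16 homing receptors tested, 12 had a positive change, the median being 0.31, with none past the test. The integrin chains Itgae and Itga4 had 0.93 ± 0.26 and 0.82 ± 0.15 (limma adjusted p = 0.137 and 0.0701), and S1pr1 and Cx3cr1 had -0.26 ± 0.36 and -0.05 ± 0.24. Of 23 ligands and class I presentation genes, 18 had a positive change, the median being 0.21 and Pvr past the test. The class I gene RT1-A2 had 0.74 ± 0.13 (limma adjusted p = 0.0697), while Cdh1, which encodes E-cadherin, the ligand of the Itgae integrin, had -0.41 ± 0.15 and Clec2d2 -0.35 ± 0.18. Of 13 inhibitory receptor and ligand genes, 7 had a positive change, the median being 0.09 and none past the test. Vsir and Lgals9 had 0.47 ± 0.12 and 0.40 ± 0.20, and Btla and Nt5e had -0.47 ± 0.14 and -0.08 ± 0.14.

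**Figure D5:**
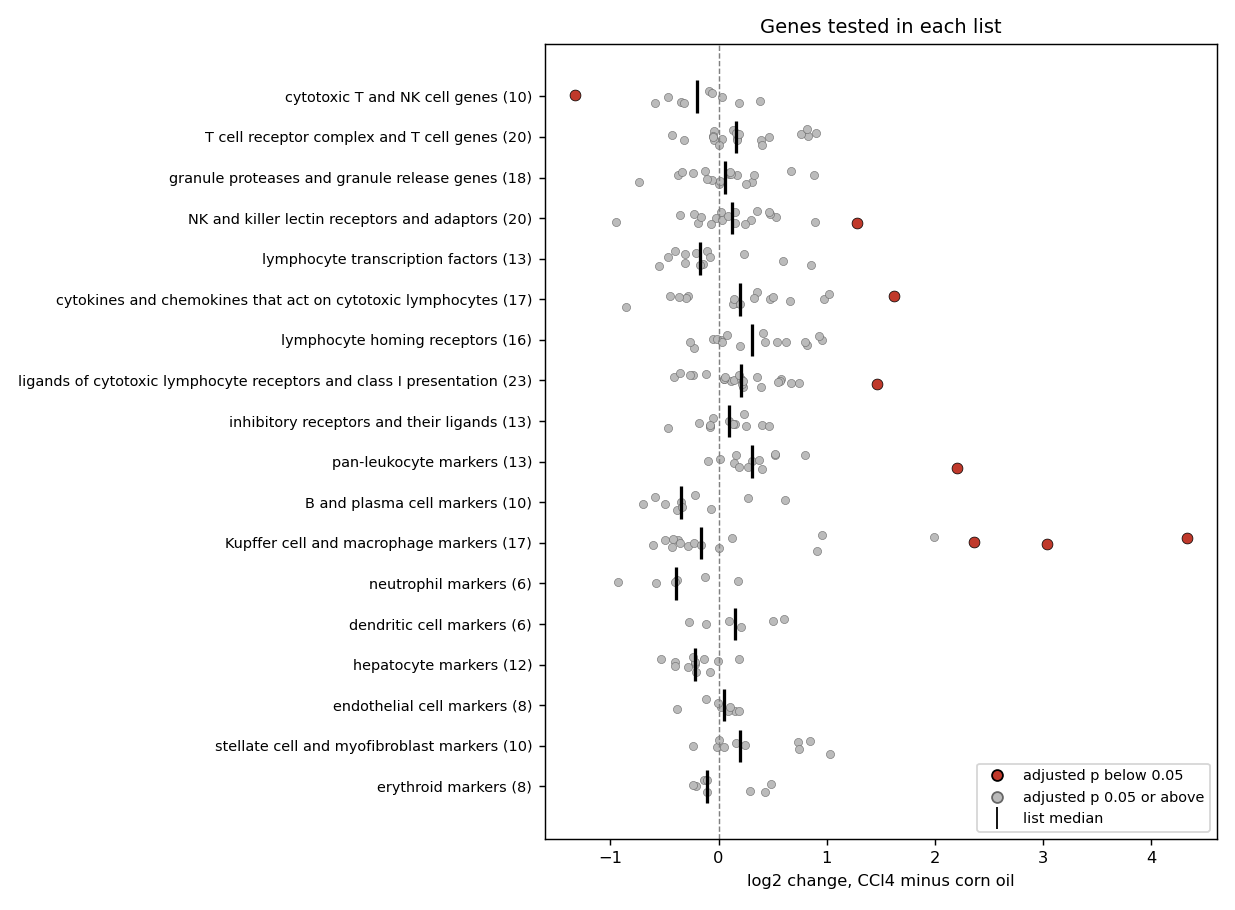
Change of each tested gene, as the CCl4 mean minus the corn oil mean in log2 units, for the 10 cytotoxic T and NK cell genes (top row), the 8 lists of related genes and the 9 lists of markers of other cells, with the number of genes tested in brackets. Red points passed at an adjusted p below 0.05 and black bars are list medians. Gzma is the 1 red point left of 0.

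Markers of other cells were read beside these genes. Of 13 pan-leukocyte markers tested, 12 had a positive change, the median being 0.31, and the adhesion receptor gene Cd44 rose 4.61-fold (2.21 ± 0.23; limma adjusted p = 0.0252). Their summed signal was 49.9 to 57.4 times the 75th percentile in CCl4 livers, against 39.4 to 47.7 times in corn oil livers, while that of the 10 cytotoxic genes was 4.78 to 5.12 times in CCl4 livers and 5.07 to 7.17 times in corn oil livers. Without Gzma the other 9 summed to 3.99 to 4.41 times in CCl4 livers and 3.52 to 5.36 times in corn oil livers, the CCl4 range lying within that of corn oil. Of 17 Kupffer cell and macrophage markers tested, 8 had a positive and 9 a negative change, the median being -0.16. Trem2, Gpnmb and Lgals3 passed, all higher in CCl4, where 0.637% of all genes passed. Their changes were 4.33 ± 0.32, 3.04 ± 0.42 and 2.36 ± 0.15 (limma adjusted p = 0.0106, 0.0462 and 0.0073). The list, with these 3 genes included, summed to 223 to 264 times in CCl4 livers and 200 to 241 times in corn oil livers. Of 10 B and plasma cell markers tested, 8 had a negative change, with a median of -0.34 and none past the test, and they summed to 3.81 to 4.38 times in CCl4 livers and 4.99 to 5.32 times in corn oil livers.

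The hepatocyte markers had a negative change in 11 of 12, with a median of -0.21 and none past the test. Median changes were -0.39 for 6 neutrophil, 0.15 for 6 dendritic cell, 0.05 for 8 endothelial, 0.20 for 10 stellate cell and myofibroblast and -0.11 for 8 erythroid markers, with none past the test. The neutrophil markers summed to 2.79 to 6.09 times in CCl4 livers and 4.28 to 7.56 times in corn oil livers, while their granule markers Elane, Ltf and Mmp8 were too dim to be tested. The dendritic cell markers summed to 0.884 to 1.02 times in CCl4 and 0.773 to 0.888 times in corn oil. Endothelial markers summed to 43.0 to 53.9 times in CCl4 and 51.3 to 62.1 times in corn oil, and stellate markers to 36.7 to 53.6 times in CCl4 and 31.0 to 36.9 times in corn oil. Erythroid markers summed to 325 to 1028 times in CCl4 and 590 to 947 times in corn oil. The part of these shifts in the fall of Gzma was not tested.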

How the data were processed

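Total RNA from 6 rat livers was labelled with Cy3 and hybridised to 1-colour Agilent arrays, and the labels describe each group's replicates as separate animals. The scanner files deposited are spot intensity readings made, per the file headers, with Agilent Feature Extraction 10.7.1.1 (10.7 in the submitters' processing notes), background-subtracted but not scaled between arrays. The authors' deposited value table holds a linear ratio, proportional to each array's processed signal with a divisor of 583.3 to 676.5. That step is not given in the labels and was read off the values.

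Of 61537 probes besides 1439 control spots, 28193 matched 1 symbol through their RefSeq accession and 33344 none. Another 26 probes, flagged as outliers somewhere, were left out. Signals were log2-transformed and the array's 75th percentile subtracted. Genes needed a probe well above background on 3 or more arrays to be tested, and the brightest probe stood for the gene. The comparison used limma 3.58.1 (R 4.3.3; lmFit and eBayes, no trend, two-sided) at an adjusted p of 0.05, Benjamini-Hochberg over 11933 genes. The script was tested on simulated data. With 3 arrays per group their number limits the precision, and 0 to 4 probes an array were saturated.

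Named genes were the 10 members and, of each other list, those that passed plus the 2 largest positive and 2 largest negative changes among genes above background everywhere, with exceptions stated. For marker lists only those that passed or were too dim are named. The members and lists were chosen with earlier results of these data known. The alternatives were quantile, median and the authors' scaling, normexp with an offset of 50, other filters and probe rules, a variance trend, slide and replicate blocks, the first slide alone and leaving out each array. Normexp used median spot signals, since mean signals are not among the columns used here. Python 3.11.15, numpy 2.4.6, pandas 2.3.3, scipy 1.17.1, matplotlib 3.10.9 and statmod 1.5.0 were also used.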

Additional observations from a re-analysis of the deposited data

How the results depend on the processing

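Gzma was lower in CCl4 under all 19 alternatives, with changes of -1.43 to -1.23, and passed the test in 11. It did not pass with slide as a fixed block (-1.32, adjusted p = 0.195), on the first slide alone (-1.32, 0.196), with the replicate block (-1.32, 0.0886), or without corn oil replicate 1 (-1.23, 0.0818), corn oil replicate 2 (-1.31, 0.0643), corn oil replicate 3 (-1.43, 0.0791), CCl4 replicate 1 (-1.32, 0.105) or CCl4 replicate 2 (-1.25, 0.143). With slide as a random block it passed (-1.32, 0.0227). The members called numbered 0 with the slide block, on the first slide and with the replicate block, and 0 to 1 with an array left out. All genes called numbered 76, and 219 after normexp, 140 with the filter on all 6 arrays, 156 with a variance trend, 4 with the slide block, 0 on the first slide, 10 with the replicate block and 2 to 241 with an array left out. The genes called from the 8 lists numbered 3, and 6 after normexp, 0 with the slide block, 0 on the first slide, 0 with the replicate block and 0 to 3 with an array left out. The slide block and the first slide rest the CCl4 estimate on 1 animal. The deviations of same-numbered animals from their group means had correlations of -0.05, 0.16 and 0.02. For replicates 2 and 3 the CCl4 and corn oil arrays were on different slides, so these values cannot settle whether animals were paired.

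The median change of the members stayed between -0.23 and -0.08 under the alternatives that keep all arrays. Of 189 values of the members under the alternatives, 168 kept sign and side of the threshold, 8 lost the call, all of Gzma, and 13 turned sign, in 5 genes with small changes or wide errors. With the slide block and on the first slide the change was 0.22 for Gzmb, 0.17 for Nkg7 and -0.0705 for Klrb1a. Normexp gave 0.0581 for Ncr1 and quantile normalization -0.0009 for Klrb1a. With an array left out, Cd8a ran from -0.161 to 0.0501, Klrb1a from -0.0251 to 0.0820 and Nkg7 from -0.172 to 0.0485. The cause of these differences was not tested.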

Other observations

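Tbx21, which encodes the transcription factor T-bet of cytotoxic and helper T cells, was read by a probe at 7.08, 7.07 and 6.99 in CCl4 livers and 7.18, 7.36 and 7.23 in corn oil livers, on the log2 scale relative to the array's 75th percentile. Which RNA the probe reads was not tested. The change was -0.21 ± 0.10 (limma adjusted p = 0.302). Tyrobp, an adaptor that NK receptors share with myeloid receptors, had 4.83, 4.92 and 5.03 in CCl4 livers and 4.27, 4.65 and 4.47 in corn oil livers, with a change of 0.47 ± 0.13 (limma adjusted p = 0.142). Both genes were chosen after their values were seen.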
